A study of Arabidopsis thaliana with 32 samples.

Results

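Transposable elements (TEs) of Arabidopsis leaves were selected that were counted in the gcn5 mutant and nearly uncounted in wild type and in the atxr5/6 mutant. They were chosen by their raw counts in 6 libraries. A TE had to hold 6 or fewer counts in each of the 2 wild-type and the 2 atxr5/6 libraries, and 10 or more in both gcn5 libraries. Of the 31189 TEs in the table, 37 met this rule, while 18539 TEs had no count in any library. The atxr5/6 gcn5 libraries played no part in the choice, so the TEs could be followed there.

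TEs are mobile DNA and its remnants, and in plants most copies are kept transcriptionally inactive by DNA methylation, histone H3 lysine 9 methylation and small RNAs. GCN5 is a histone acetyltransferase, an enzyme class linked to active transcription. ATXR5 and ATXR6 place a single methyl group on lysine 27 of the replication-dependent histone H3.1, and their loss is known to release TEs of the pericentromeric heterochromatin.

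The libraries were made from bulk leaves of 3-week-old plants of the Col-0 ecotype, grown with 16 h of light and 8 h of dark. There were 8 RNA-seq libraries, 2 for each of 4 genotypes: wild type, the atxr5/atxr6 double mutant (atxr5/6), the gcn5 mutant, and the atxr5/atxr6/gcn5 combination (atxr5/6 gcn5). The labels name no alleles and do not say whether replicates came from separate plants, so p-values measure the spread between these libraries, which may be technical. In bulk tissue, fewer cells with a transcript and less RNA per cell cannot be told apart.

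The gene table summed to between 24860332 and 43969417 counts per library and the TE table to between 75865 and 171823. Levels below are in CPM, counts scaled to the effective size of the gene table. GCN5, listed as HAG1, was at 4.79 CPM in wild type and 5.11 CPM in gcn5, so its counts did not set apart the libraries labelled gcn5, and gcn5 stands here for libraries so labelled. ATXR5 had a CPM of 3.23 for wild type and 0.813 for atxr5/6. ATXR6 had 0.460 and 0.206, on few counts. In the combination ATXR5 was at 0.200, while ATXR6 was at 0.483, which did not set the libraries so labelled apart from wild type (edgeR adjusted p 0.874). ATXR5 was also lower in gcn5, at 2.01 (edgeR adjusted p 0.0200). All 4 leaf markers (RBCS1A, RCA, LHCB1.1 and CA1) were counted in each library. Their summed CPM was 10562 and 10552 in wild type and 11442 and 11313 with atxr5/6 lost. It was lower with gcn5, at 7695 and 6858, and in the combination, at 6394 and 7127.

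The libraries labelled gcn5, alone or in the combination, stood apart by their share of counts on ribosomal RNA (rRNA). The RNA had been depleted of rRNA, so these shares are of what depletion left, and rRNA levels in the plants were not measured. Whether depletion differed between libraries was not tested. The nuclear 18S and 5.8S rRNA features held 0.111% and 0.242% of gene counts in the wild-type libraries and 0.356% and 1.05% in atxr5/6. The shares were 8.01% and 4.85% with gcn5 and 7.27% and 5.92% with the combination. Plastid rRNA, encoded in another genome, went from 0.152% and 0.307% for wild type, and 0.400% and 1.07% for atxr5/6, to 21.9% and 14.2% for gcn5 and 21.8% and 12.4% for the combination. These shares follow the same division of libraries as the selection rule, and their part in the results below was not tested.

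The identifiers of the 37 TEs were far from evenly spread. An identifier such as AT3TE58875 gives the chromosome and a number, and by the naming convention of the Arabidopsis annotation the numbers run in order along the chromosome. Chromosome 3 carried 23 of the members, chromosome 2 carried 6, chromosome 1 carried 4, chromosome 4 carried 3 and chromosome 5 carried 1. The same chromosomes hold 20.7%, 19.1%, 22.9%, 15.9% and 21.4% of all TE identifiers.

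Within chromosomes 2 and 3 the members stood close together. When members less than 100 ranks apart were joined, a distance chosen after their positions were seen, the 6 on chromosome 2 fell among its first 25 identifiers of 5949, from AT2TE00010 to AT2TE00350. The 23 on chromosome 3 fell between ranks 3787 and 4070 of 6461, from AT3TE57325 to AT3TE58960. These runs together contain 309 identifiers, 0.991% of the table, and 29 of the 37 members (78.4%). The other 8 members were scattered over chromosomes 1, 4 and 5. The widest gap inside the chromosome 3 run was 71 ranks and divided it into 9 members up to AT3TE58090 and 14 from AT3TE58495 onward.

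**Figure D1:**
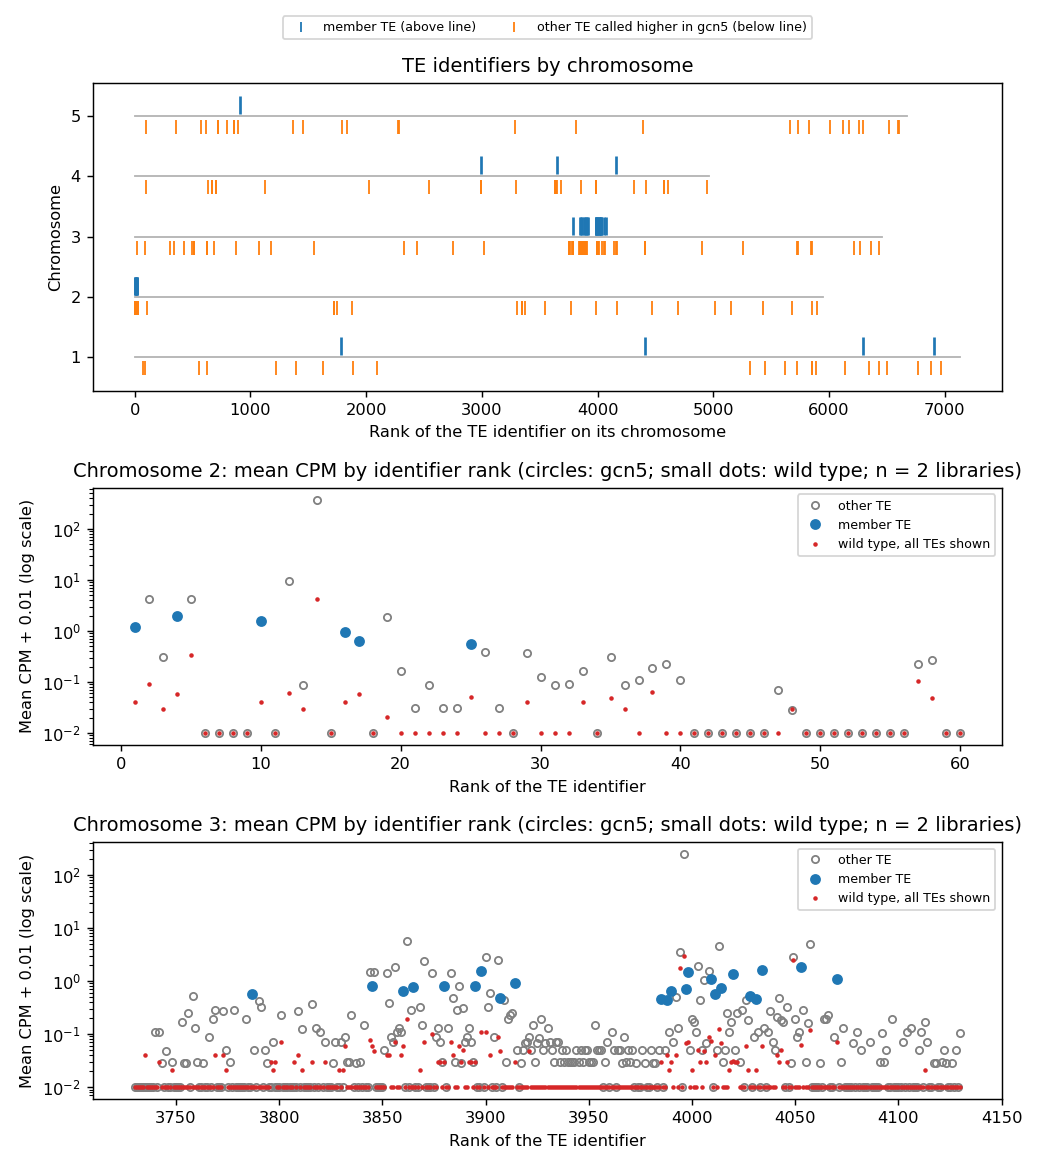
The top panel places member TEs (blue, above each line) and other TEs called higher in gcn5 than in wild type (orange, below) by the rank of their identifier on each chromosome. The lower panels give mean CPM plus 0.01 (log scale, n = 2 libraries) in gcn5 (circles) and in wild type (small red dots) by identifier rank on chromosomes 2 and 3, where 29 of the 37 members form 2 close runs.

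In the annotation of genes, nuclear rRNA genes were looked up only on chromosomes 2 and 3, where the runs lie, and both chromosomes hold some. Other chromosomes were not searched, so nothing is read from this shared location. The chromosome 2 copies, AT2G01010 and AT2G01020, stand at places 3 and 4 among the 6310 RefSeq genes of that chromosome in order, and AT3G41768 and AT3G41979 at places 4562 and 4564 of 7622 on chromosome 3. The tables do not link TE identifiers with gene positions, so the distance between these genes and the members was not analysed here. Whether member TEs contain rRNA-like sequence, so that their counts hold rRNA reads and not TE transcripts, was not tested.

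Some TEs around the members were also higher in gcn5. Besides the members, the runs hold 280 TEs, of which 218 had any count and 39 had enough counts to be tested, while 241 did not. Of these 39 neighbours, 35 were called higher in gcn5 than in wild type and 0 lower (edgeR's quasi-likelihood test, adjusted p under 0.05), with log2 fold changes centred on a median of 4.73, and 38 had an unadjusted p under 0.05. Over all 1540 TEs tested, 14.2% were called higher, 5.52% lower and 19.7% in either direction, and the median was 0.22. Outside the runs and the members, there were 147 TEs called higher and 85 called lower among 1464. Fits that left out wild-type replicate 1 took the calls in either direction over all TEs from 304 to 175. A neighbour with low control counts could pass the filter on low counts only through the libraries with gcn5, so the 39 are not all neighbours and nothing is read from their share. The runs were drawn around the members, and near-identical copies may share reads, so these neighbours are not independent of them. TEs inside the runs made up 64 of the 219 TEs called higher in gcn5 (29.2%). Of these 64, 35 were neighbours and 29 were members, which the rule selected as high in gcn5, so nothing is read from that share.

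Of the 280 neighbours, 23 had 10 or more counts in both gcn5 libraries and were left out by the limit on control counts. The most abundant were AT2TE00095 and AT3TE58570, named after their values were seen. AT2TE00095 held 105 and 156 counts in wild type, 465 and 678 in atxr5/6, 8349 and 10875 in gcn5, and 3260 and 3085 in atxr5/6 gcn5. AT3TE58570 held 88 and 104, 277 and 390, 4975 and 7773, and 2998 and 2383 in the same order. For both, the 4 genotypes did not overlap, with gcn5 highest and wild type lowest.

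The same chromosome 3 stretch also holds a TE of the opposite kind. AT3TE57445, chosen after its values were seen, held 1 and 0 counts in wild type, 450 and 283 in atxr5/6, 2 and 4 in gcn5, and 106 and 76 in atxr5/6 gcn5. It was high in both genotypes with atxr5/6 and near 0 in gcn5. Members at close ranks were low in atxr5/6 because the rule capped them there, so nothing is read from that contrast. Of the 33 tested neighbours in this run, 11 were called higher in atxr5/6 than in wild type and 0 lower (edgeR). Over all TEs tested, 26.6% were called higher and 4.29% lower.

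Levels of the members were low even where they were counted. In gcn5 single libraries held from 10 to 63 counts per member, with medians of 22 and 16 in replicates 1 and 2. Mean CPM there ran from 0.432 to 1.96 with a median of 0.748. In wild type the members held 0 to 4 counts per library and in atxr5/6 0 to 6. Of the 37, 3 had 0 counts in both wild-type libraries and 0 had 0 counts in all 4 controls, so most were nearly silent by these counts rather than silent. The members held 0.0358% and 0.0659% of TE counts in wild type, 0.0419% and 0.0825% in atxr5/6, 1.09% and 0.742% in gcn5, and 1.23% and 0.769% in atxr5/6 gcn5.

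Summed over the 37 members, counts were 44 and 50 in wild type, 72 and 95 in atxr5/6, 954 and 741 in gcn5, and 1286 and 703 in atxr5/6 gcn5. Wild type thus had a summed CPM of 1.44 ± 0.689 (SD, n = 2), and the atxr5/6 libraries had 1.55 and 3.10. The gcn5 sum reached 33.3 ± 7.66, and that of the combination 33.1 ± 12.7. The separation of gcn5 from wild type and atxr5/6 is what the rule chose and is given as a description. All 37 were called higher in gcn5 against wild type, where 14.2% of TEs tested were, and nothing is read from that count. All 37 passed the filter on low counts, which they had to through gcn5.

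**Figure D2:**
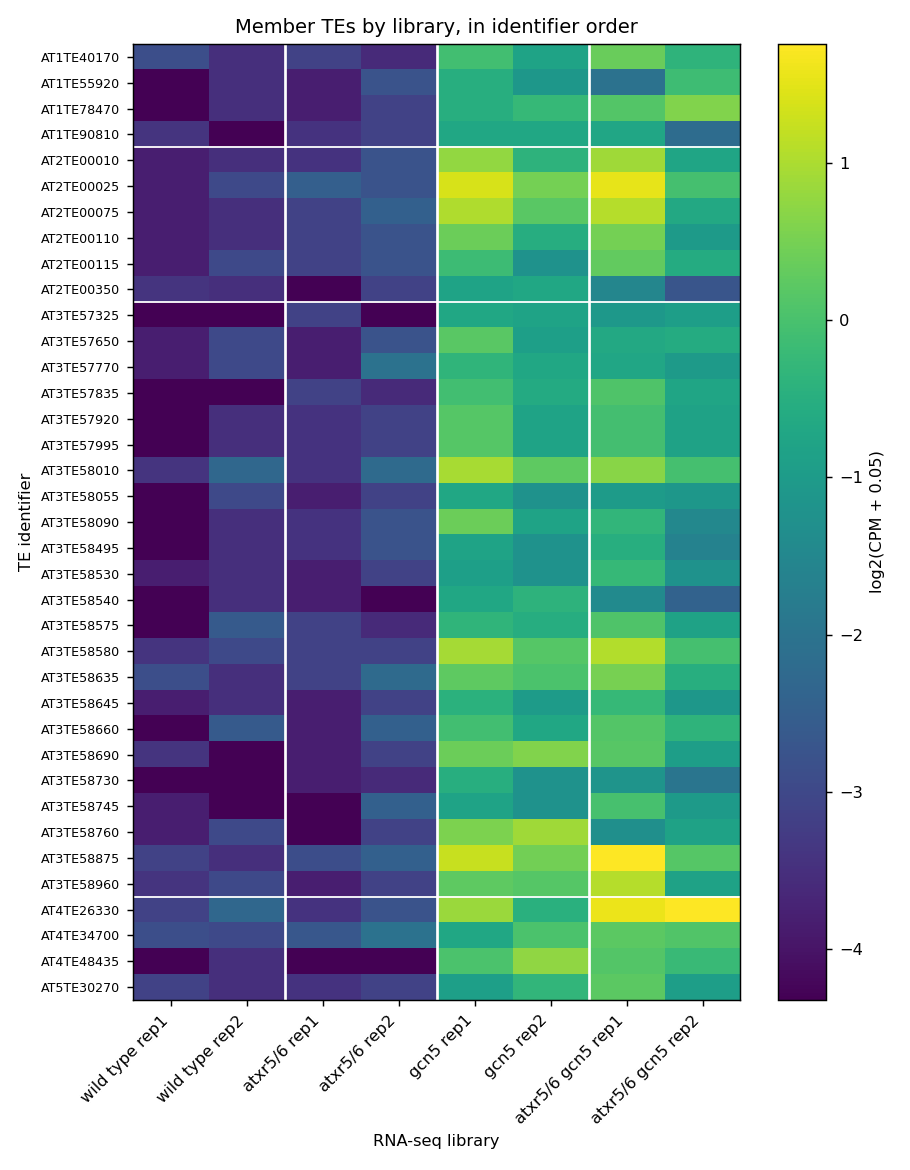
Each row is one of the 37 member TEs in identifier order and each column one RNA-seq library, coloured by log2(CPM + 0.05). White lines separate genotypes and groups of chromosomes. The 4 wild-type and atxr5/6 columns are dark by the selection rule, and the 2 atxr5/6 gcn5 columns, which the rule did not use, resemble the 2 gcn5 columns.

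In the combination, most members were counted again. Of the 37, 30 (81.1%) held 10 or more counts in both atxr5/6 gcn5 libraries, where 3.29% of all TEs in the table did. More than 6 counts in both were held by 32, and no member was at 6 or fewer in both. Among the 848 other TEs with 10 or more counts in both gcn5 libraries, 91.4% also reached that level in both atxr5/6 gcn5 libraries. Among the 28881 other TEs that were at 6 or fewer in each control library, 0.0485% did, which is 14 TEs, 6 of them inside the runs. This group includes the 18539 TEs with no count in any library and, by the rule, no TE on in both gcn5 libraries. Read from the combination, 44 TEs were low in the controls and on in atxr5/6 gcn5, and the 30 shared TEs were 81.1% of the gcn5 list and 68.2% of that one.

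All 37 members had a CPM in each atxr5/6 gcn5 library above each of the 4 wild-type and atxr5/6 libraries, against 22.7% of TEs tested. Against atxr5/6 all 37 were called higher in atxr5/6 gcn5, where 13.2% of TEs tested were called higher, 26.4% lower and 39.6% in either direction. Against wild type 36 were called higher, where 29.6% were called higher and 9.22% lower. Because the rule held the controls at low counts, these counts do not stand as tests. In the reverse direction, the comparison of atxr5/6 with wild type called 0 of the 37 by edgeR, where the calls over TEs tested were 26.6% higher and 4.29% lower. There 1 member had an unadjusted p under 0.05, and the rule capped both groups.

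Between gcn5 and atxr5/6 gcn5 the mean CPM was higher in some members and lower in others. The ratio of mean CPM in atxr5/6 gcn5 to gcn5 had a median of 0.957 and ranged from 0.271 to 2.59, and it was over 1 for 16 of the 37. In 27 members the CPM values of the genotypes overlapped, in 3 both atxr5/6 gcn5 libraries were higher and in 7 both were lower. The shares over all TEs tested were not computed. With 2 libraries against 2, an exact permutation test cannot give a 2-sided p below 0.333, so nothing is read from these counts. By edgeR, 1 member was called higher and 1 lower, while 11.2% of TEs tested were called higher and 1.43% lower. The rule required gcn5 to be high, which favours lower values in the other genotype, so only the call toward higher values runs against the choice. In the test of whether the gcn5 effect differed with atxr5/6 (interaction), edgeR called 0 members, and 0 had an unadjusted p under 0.05. Over TEs tested, 4.94% were called, 0.519% higher and 4.42% lower. The rule capped wild type and atxr5/6 in the members, so nothing is read from that 0.

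The member called higher was AT4TE26330. It held 3 and 4 counts in wild type, 2 and 3 in atxr5/6, 43 and 18 in gcn5, and 90 and 97 in atxr5/6 gcn5. Both atxr5/6 gcn5 libraries were above both gcn5 libraries, with means of 3.13 ± 0.269 and 1.21 ± 0.755 CPM (SD, n = 2). The difference had an adjusted p of 0.0273 by edgeR and a log2 fold change of 1.38 (SE 0.36). It had the highest level of any member in the combination. The call was lost with DESeq2 (adjusted p 0.0772), with only the 2 genotypes compared (0.0685), without gcn5 replicate 2 (0.193) and without atxr5/6 gcn5 replicate 1 (0.0700) or 2 (0.106), over a range of adjusted p from 0.000558 to 0.193 by edgeR or DESeq2.

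The member called lower was AT3TE58760, inside the chromosome 3 run. Its counts were 1 and 2 in wild type, 0 and 2 in atxr5/6, 35 and 48 in gcn5, and 11 and 15 in atxr5/6 gcn5. Its mean CPM was 1.61 ± 0.273 for gcn5 and 0.437 ± 0.109 for the combination, with an adjusted p of 0.0130 by edgeR (log2 fold change -1.88, SE 0.43). It lost the call without gcn5 replicate 2 (adjusted p 0.0718) and without atxr5/6 gcn5 replicate 1 (0.0743).

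**Figure D3:**
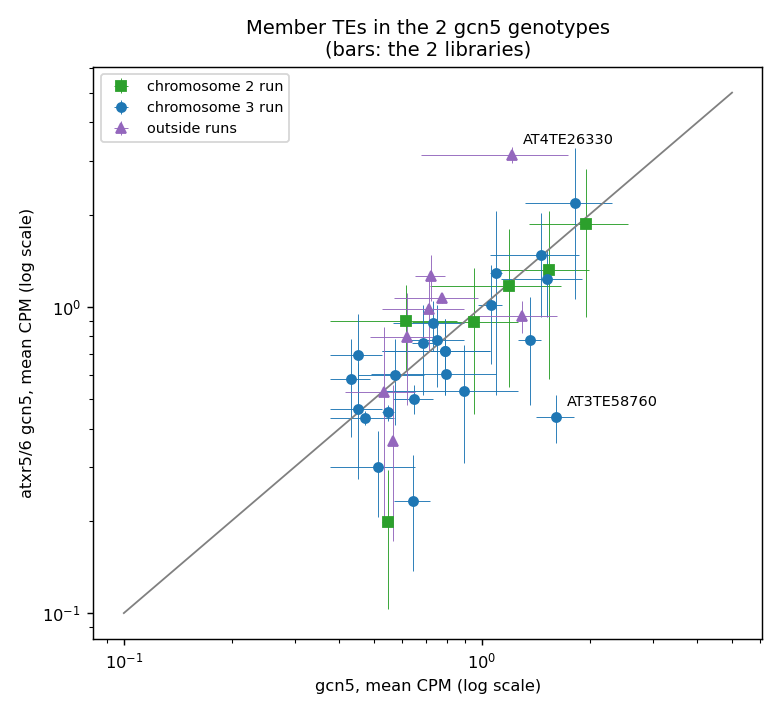
Mean CPM of each member TE in gcn5 (x axis, log scale) and in atxr5/6 gcn5 (y axis, log scale), with bars that reach the values of the 2 libraries of each genotype. The grey line marks equal levels. AT4TE26330 lies above the line and AT3TE58760 below it, and the ratio of the genotypes has a median of 0.957 over the 37 members.

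Among the members with the highest levels in gcn5, AT2TE00025 came first. Its counts were 1 and 2 in wild type, 6 and 3 in atxr5/6, 63 and 36 in gcn5, and 86 and 27 in atxr5/6 gcn5. AT3TE58875 followed with 3 and 1, 4 and 4, 57 and 35, and 101 and 31 counts in the same order. AT2TE00075 held 1 and 1, 3 and 4, 49 and 29, and 63 and 17. In these 3 TEs replicate 1 exceeded replicate 2 in both genotypes with gcn5, and the atxr5/6 gcn5 replicates lay on either side of the gcn5 ones.

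AT3TE58010 held 2 and 4 counts in wild type, 2 and 5 in atxr5/6, 47 and 30 in gcn5, and 47 and 27 in atxr5/6 gcn5. AT3TE58580 held 2 and 2, 3 and 2, 46 and 28, and 62 and 27. AT2TE00010, the first TE identifier of chromosome 2, held 1 and 1, 2 and 3, 41 and 19, and 55 and 16. Again gcn5 and atxr5/6 gcn5 overlapped, with means within 1 SD of each other. AT3TE58960 (28 and 28 counts in gcn5, 63 and 15 in atxr5/6 gcn5) and AT3TE58635 (28 and 26, then 42 and 19) had even gcn5 replicates and uneven ones in the combination.

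The next members departed from that pattern. AT3TE58690 held 2 and 0 counts in wild type, 1 and 2 in atxr5/6, 31 and 39 in gcn5, and 33 and 14 in atxr5/6 gcn5. AT4TE48435, outside the runs, held 0 and 1, 0 and 0, 24 and 43, and 32 and 24. In both, gcn5 replicate 2 was the higher one, as it was in AT3TE58760 and in the abundant neighbours AT2TE00095 and AT3TE58570.

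Low ratios of atxr5/6 gcn5 to gcn5 were found in AT3TE58760 (0.271), AT3TE58540 (0.362), AT2TE00350 (0.364) and AT3TE58690 (0.572). All 4 had more counts in gcn5 replicate 2 than in replicate 1, while by CPM replicate 1 was higher in 29 of the 37 members. The same order of replicates was found with ratios over 1 in AT1TE78470 (1.75), AT4TE34700 (1.38) and AT5TE30270 (1.28). It was also found in AT4TE48435 (0.721) and, by counts only, in AT1TE90810 (0.642). The gcn5 replicates of AT1TE90810 were at 0.568 and 0.565 CPM. AT3TE58540 held 14 and 19 counts in gcn5 and 10 and 4 in atxr5/6 gcn5. AT2TE00350, the last of the chromosome 2 run, held 13 and 15, then 9 and 3. The abundant neighbours in the same runs were also lower in the combination than in gcn5.

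High ratios were found in AT4TE26330 (2.59), AT1TE78470 (1.75), AT3TE58745 (1.54) and AT2TE00115 (1.46). AT1TE78470 held 0 and 1 counts in wild type, 1 and 2 in atxr5/6, 16 and 21 in gcn5, and 32 and 43 in atxr5/6 gcn5, with no overlap between the last 2 genotypes. AT3TE58745 held 13 and 10 counts in gcn5 and 29 and 13 in atxr5/6 gcn5. AT2TE00115 held 21 and 10, then 36 and 18. None of these 3 passed the test of that difference (edgeR).

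Some members cannot be taken as separate units. AT3TE57920 and AT3TE57995, 15 ranks apart, had equal counts in all 8 libraries (0 and 1, 2 and 2, 26 and 14, 28 and 15). Members next to each other in identifier order were AT2TE00110 with AT2TE00115 and AT3TE58575 with AT3TE58580. AT2TE00110 held 31 and 17 counts in gcn5 and 41 and 13 in atxr5/6 gcn5, and AT3TE58575 held 18 and 17, then 31 and 15. The treatment of reads that fit several copies is not given in the sources used here, so copies may share reads.

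By place, the summed levels of the members behaved unlike each other between replicates. The 6 members of the chromosome 2 run had sums of 8.85 and 4.74 CPM with gcn5 and 9.48 and 3.22 CPM with the combination. For the 23 of the chromosome 3 run the sums were 20.1 ± 4.60 CPM, then 17.6 ± 8.00 CPM (SD, n = 2). The 8 outside the runs had sums of 6.53 and 6.32 CPM with gcn5 and 9.25 and 8.87 CPM with the combination. Inside the runs replicate 1 was the higher library in both genotypes, and outside the runs the sums were nearly even, although single members there had ratios of replicate 1 to replicate 2 from 0.581 to 2.58 in gcn5 and from 0.229 to 3.24 in atxr5/6 gcn5.

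The rRNA shares given above were also higher in replicate 1 of both genotypes. As CPM, nuclear rRNA in replicate 1 was 2.15 times that in replicate 2 in gcn5 and 1.49 times in atxr5/6 gcn5, and plastid rRNA 2.00 and 2.13 times. The median ratio of replicate 1 to replicate 2 over members was 1.93 and 3.02 in the chromosome 2 run, 1.48 and 1.91 in the chromosome 3 run, and 0.914 and 1.18 outside the runs, for gcn5 and atxr5/6 gcn5. Within the chromosome 3 run, the part up to AT3TE58090 had medians of 1.69 and 1.66 and the part from AT3TE58495 had medians of 1.35 and 2.12. In wild type and atxr5/6, replicate 2 had both the higher rRNA shares and the higher summed CPM of members. There the rule capped the members, and their sums were only 44 and 50 counts in wild type and 72 and 95 in atxr5/6. Replicate 2 also had the smaller effective size, 25891987 against 46005280 in wild type, which raises its CPM. Nothing is read from the order in these 4 libraries.

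**Figure D4:**
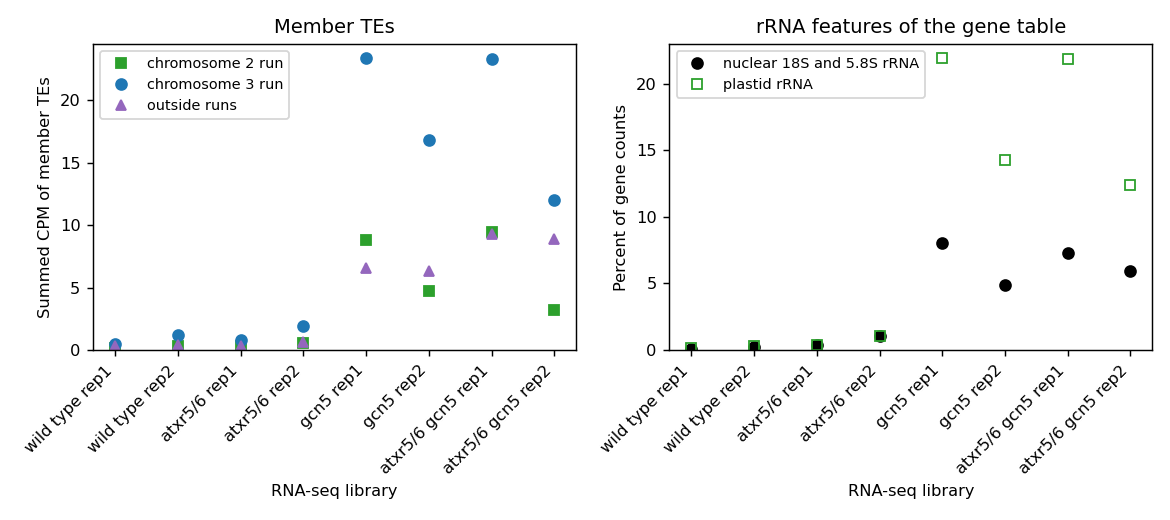
Left, summed CPM of member TEs in each of the 8 libraries, for the chromosome 2 run (6 members), the chromosome 3 run (23) and the members outside the runs (8). Right, the percent of gene counts on nuclear 18S and 5.8S rRNA and on plastid rRNA in the same libraries. In the 4 libraries with gcn5, the runs and both rRNA shares are higher in replicate 1, while the sum of the members outside the runs is nearly even between replicates.

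The 8 members outside the runs were AT1TE40170, AT1TE55920, AT1TE78470, AT1TE90810, AT4TE26330, AT4TE34700, AT4TE48435 and AT5TE30270. Their summed CPM had a mean of 0.386 ± 0.0545 for wild type, 0.483 ± 0.195 for atxr5/6, 6.43 ± 0.149 for gcn5 and 9.06 ± 0.268 for the combination (SD, n = 2). With atxr5/6 also lost, 6 of the 8 held 10 or more counts in both libraries. AT1TE55920 was uneven there, with 16 and 11 counts in gcn5 and 6 and 25 in atxr5/6 gcn5, and AT1TE90810 held 14 and 15, then 17 and 5. AT1TE40170 held 22 and 14, then 38 and 21, AT4TE34700 14 and 26, then 34 and 30, and AT5TE30270 12 and 20, then 34 and 14. AT4TE26330 alone supplied the largest part of the rise in the sum.

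Members near the limits of the rule differed little from TEs left out. At exactly 10 counts in the lower gcn5 library there were 6 members, among them AT3TE58495 (13 and 10), AT3TE58730 (16 and 10) and AT3TE58530 (12 and 10). With 9 counts there, 4 TEs were left out, among them AT3TE58030 (20 and 9), AT3TE58550 (16 and 9) and AT5TE29680 (14 and 9). At the upper limit, AT3TE57770, AT2TE00025 and AT4TE34700 reached 6 counts in an atxr5/6 library. With 7 counts in a control library, 8 TEs were left out, among them AT5TE40480 (115 and 32 counts in gcn5), AT3TE57705 (57 and 36) and AT3TE57655 (51 and 24). Counts scaled to library size gave 44 members instead of 37, and 20 or more counts in gcn5 gave 10.

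Genes linked to TE silencing were examined in the same libraries, from a list of 42. It covers DNA methyltransferases, histone H3 lysine 9 methyltransferases, the RNA-directed DNA methylation pathway, chromatin remodelers and linker and H2A.W histones. It also holds ROS1, DME and IBM1, which remove DNA or histone methylation, so the counts below mix opposed activities. None of these was called in gcn5 against wild type, and ROS1 was called higher in atxr5/6 gcn5 against wild type (edgeR adjusted p 0.0478). Between gcn5 and wild type 12 of the 41 tested were called higher and 1 lower, at a median log2 change of 0.31, where 18.1% of 19575 genes were called higher and 19.4% lower, with a median of 0.01. The count of 13 called in either direction, where 37.5% of genes were called, fell to 4 with library totals only and to 7 without gcn5 replicate 2. Between atxr5/6 gcn5 and wild type 16 were called higher and 1 lower, where 18.7% of genes were called higher and 20.4% lower.

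NRPE1, the largest subunit of RNA polymerase V, went from 8.13 to 18.4 CPM (edgeR adjusted p 0.00142, log2 fold change 1.17, SE 0.16). NRPD2, the second subunit shared by RNA polymerases IV and V, went from 21.7 to 32.2 CPM, and DMS3, a protein needed for polymerase V transcription, from 2.95 to 5.05 CPM. CMT2, a chromomethylase of non-CG sites, went from 9.40 to 15.4 CPM and MET1, which maintains CG methylation, from 8.05 to 14.0 CPM (log2 fold changes 0.70 and 0.80). In atxr5/6, NRPE1 was at 10.1, NRPD2 at 22.9, DMS3 at 3.73, CMT2 at 9.66 and MET1 at 12.8 CPM. The MET1 level there was thus near that in gcn5. The gene called lower was HTA12, an H2A.W histone that marks heterochromatin, at 4.31 CPM in wild type and 1.81 CPM in gcn5 (edgeR adjusted p 0.00217, log2 fold change -1.23, SE 0.18). DDM1, the remodeler that gives methyltransferases access to heterochromatin, was at 5.94 and 6.08 CPM (adjusted p 0.943) and HDA6, a histone deacetylase needed for silencing of TEs and rDNA, at 10.5 and 12.6 CPM (adjusted p 0.111).

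Markers of other tissues were read beside these values. The 7 flower and meristem markers summed to between 5.68 and 12.4 CPM, both ends being gcn5 libraries. The 2 pollen and tapetum markers summed to 0.367 to 0.657 CPM over the 4 control libraries. Libraries of gcn5 had 0.893 and 3.46 CPM, and those of the combination 0.523 and 1.06 CPM. VGD1, a pollen pectin methylesterase, was counted 0 and 62 times in gcn5, 0 and 6 times in atxr5/6 gcn5, 4 and 0 times in wild type and not at all in atxr5/6. LEC1 and the seed storage gene AT2S1 were at 0 apart from 1 count of AT2S1 in gcn5 replicate 2. Among the libraries with gcn5, VGD1 was counted in replicate 2 only. Its part in the member levels was not tested.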

How the data were processed

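Per the labels' protocols, RNA from leaves was depleted of ribosomal RNA with a plant kit and made into stranded total RNA libraries. The authors deposited raw counts per gene and per annotated TE, 1 column per library, all 8 of which matched a sample title. The submitters' processing notes name STAR 2.7.2a and featureCounts 1.6.4 and the build TAIR10. The use of strand and of reads with several matches is not given in the sources used here, so overlapping or antisense features can share counts. The 24 chromatin samples were not analysed here. Members were counted on the raw counts. The test was edgeR 4.0.16 in R 4.3.3 (glmQLFit, glmQLFTest) over all 8 libraries with genotype as the only term, after filterByExpr at its minimum of 10 counts, which kept 1540 TEs and 19575 genes, with 4 residual degrees of freedom. Effective sizes were TMM factors of the gene table, used for TEs too. Adjustment was by Benjamini-Hochberg over the whole table, with calls below 0.05. Standard errors were the absolute log2 fold change over the square root of F. The procedure was also run on simulated counts with a single fixed spread and changes in gcn5 only, and nothing about the members is drawn from it. Replicates of each genotype differed beyond sampling noise over genes (chi-square per degree of freedom 22.6 to 89.6). Members and gene lists were chosen with earlier results of these data known. TEs named are the 12 highest in gcn5, the 4 highest and 4 lowest ratios between the gcn5 genotypes, adjacent members, TEs at the limits, and others said to be chosen after their values were seen. The remaining members outside the runs were named to complete that group. Gene symbols match the labels of the RefSeq table of TAIR10.1 or its synonyms, which lists 33056 of 33341 identifiers. Alternatives were other size factors, other filters, DESeq2 1.42.0, only the genotypes compared, a replicate block and leaving out each library.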

Additional observations from a re-analysis of the deposited data

Results flagged for a closer look

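The effect of gcn5 with atxr5/6 differed from its effect without it, by edgeR's interaction test, for 10 of the 39 tested neighbours. All 10 went toward lower values. Over all 1540 TEs tested, 4.94% were called, 0.519% higher and 4.42% lower. Of the 37 members 0 were called, but the rule capped their counts in wild type and atxr5/6. The 23 neighbours with 10 or more counts in both gcn5 libraries were non-members because a control exceeded that cap. Neighbours with low control counts could pass the filter on low counts only through libraries with gcn5. The contrast of neighbours with members can follow from the choice, so nothing is read from it. At an unadjusted p under 0.05 no member differed either, and DESeq2 was not run for this contrast. Among the 10 are 3 neighbours whose counts are given above. The log2 difference was -3.81 for AT2TE00095 (SE 0.55, adjusted p 0.00350), -3.16 for AT3TE58570 (SE 0.50, adjusted p 0.00747) and -4.41 for AT3TE57445 (SE 0.97, adjusted p 0.0345). These 3 TEs were named after their values were seen.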

How the results depend on the processing

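The number of members was 26 with 3 or fewer counts in each control library, 56 with 10 or fewer and 10 with 20 or more in both gcn5 libraries. Leaving out 1 library gave 37 to 69, the highest without gcn5 replicate 2. Members with 10 or more counts in both atxr5/6 gcn5 libraries went from 30 to 10 with a limit of 20 and to 31 to 35 on a single library, and 6 lay outside the runs (an alternative chosen after seeing the data). The summed CPM in gcn5 and atxr5/6 gcn5 was 84.8 and 84.1 with TMM of nuclear genes outside rDNA, whose sizes leave out organelle counts, and on single libraries 27.9 to 38.7 and 24.1 to 42.0. With a mean of at least 20 counts, which left 6 members, 188 TEs were called in gcn5 against wild type, 302 in atxr5/6 gcn5 against wild type, 286 against atxr5/6 (6 members) and 95 against gcn5 (1 member). DESeq2 called 354 against atxr5/6 and 117 against gcn5, 1 of them a member, and only the 2 genotypes compared left 1 member against gcn5. Outside the runs, 8 members were called against atxr5/6 and 1 against gcn5.

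Leaving out 1 library gave 175 to 331 TEs in gcn5 against wild type, 380 (without wild-type replicate 1) to 604 in atxr5/6 gcn5 against wild type, 365 (without atxr5/6 replicate 1) to 626 against atxr5/6 and 107 (without gcn5 replicate 2) to 186 against gcn5. It gave 29 to 37 members against atxr5/6, 0 to 2 members against gcn5, 3813 (without gcn5 replicate 2) to 7753 genes and 7 to 16 silencing genes in gcn5 against wild type. With library totals only, 4838 genes and 4 silencing genes were called, 1345 genes higher and 3493 lower against 3537 and 3806, and the median log2 fold change of all genes moved from 0.01 to -0.09. TMM of the TE table moved the median of TEs from 0.22 to 0.00 and the calls in gcn5 against wild type from 219 higher and 85 lower to 175 and 167, with all 37 members still higher. For the other values the cause was not tested. The replicate block gave 309 TEs in gcn5 against wild type and 199 in atxr5/6 gcn5 against gcn5, with the same 2 members, and changed no other call count by over 1.5 times. The labels do not say that numbers pair libraries, and the correlation of replicate differences between genotypes over TEs was -0.07 to 0.18. Members held 10 to 63 counts in each gcn5 library, and the fold change that could be detected at this depth and replicate spread was not measured.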
